A study of Mus musculus with 7 samples.

Results

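Melanin pigmentation in the mouse eye was followed through 10 genes, chosen by symbol from the 54532 genes of the deposited table and read in all 7 libraries: Tyr, Tyrp1, Dct, Pmel, Mlana, Mitf, Oca2, Slc45a2, Best1 and Ttr. They were read as a fixed list of names, chosen with earlier results of these data known. Every one of them had a value above 0 in every library. The question was whether their level went with the Agbl5 genotype or with single libraries. Agbl5 encodes CCP5, an enzyme that removes glutamate chains from tubulin, and the series was set up to study its loss in retinal photoreceptors.

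Polyadenylated RNA was sequenced from 3 knockout, 2 heterozygous and 2 wildtype mouse samples, each labelled by its Agbl5 genotype alone, with no treatment or time point. The tissue label read eyeball, whereas the extraction text spoke of retina, so the labels left unclear how much of the pigmented coats of the eye was taken. Strain, coat colour, age and the construction of the knockout allele were not given in the sources used here. Whether replicates came from separate animals was not stated either, so the p-values below measure the spread between these samples, which may in part be technical.

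Melanin is made inside melanosomes from tyrosine: tyrosinase (Tyr) starts the chain of reactions, and Tyrp1 and Dct act on later intermediates. Pmel forms the fibrils on which the pigment is laid down, Mlana supports Pmel maturation, Oca2 and Slc45a2 are transporters that keep the organelle permissive for tyrosinase, and Mitf is the transcription factor that drives many of these genes. In the eye 2 kinds of cell carry melanin, the pigmented epithelia of retina, ciliary body and iris, and the melanocytes of choroid and iris stroma. Best1, a chloride channel of the retinal pigment epithelium, and Ttr, the transthyretin that carries thyroxine, are made by the retinal pigment epithelium but take no part in melanin synthesis.

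Promoter sequences are shown for the 3 genes of the tyrosinase family, because these genes moved together across the libraries and their promoters carry the element through which Mitf is known to act. Each runs from 250 bases before to 50 bases after the start of the transcript, 5′ to 3′ on the gene's own strand (RefSeq, build GRCm38.p6). Capitals mark the core of the element called the M-box, CATGTG, read as CACATG on the opposite strand, and where the 3 genes share the bases around it, the whole shared run GTCATGTGCT. The Tyr window lay at chr7:87493463-87493762 on the minus strand, that of Tyrp1 at chr4:80833963-80834262 on the plus strand, and that of Dct at chr14:118052197-118052496 on the minus strand.
Tyr: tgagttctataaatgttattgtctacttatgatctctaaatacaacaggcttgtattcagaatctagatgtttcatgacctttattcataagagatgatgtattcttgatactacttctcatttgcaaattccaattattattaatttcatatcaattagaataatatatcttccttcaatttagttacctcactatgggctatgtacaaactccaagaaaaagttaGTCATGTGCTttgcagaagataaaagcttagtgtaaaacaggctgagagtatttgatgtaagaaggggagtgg
Tyrp1: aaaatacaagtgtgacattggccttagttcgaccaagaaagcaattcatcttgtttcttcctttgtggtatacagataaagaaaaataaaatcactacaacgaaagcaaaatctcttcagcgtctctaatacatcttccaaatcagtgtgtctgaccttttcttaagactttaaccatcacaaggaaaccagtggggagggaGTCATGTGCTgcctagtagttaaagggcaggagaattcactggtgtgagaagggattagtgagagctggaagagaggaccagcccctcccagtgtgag
Dct: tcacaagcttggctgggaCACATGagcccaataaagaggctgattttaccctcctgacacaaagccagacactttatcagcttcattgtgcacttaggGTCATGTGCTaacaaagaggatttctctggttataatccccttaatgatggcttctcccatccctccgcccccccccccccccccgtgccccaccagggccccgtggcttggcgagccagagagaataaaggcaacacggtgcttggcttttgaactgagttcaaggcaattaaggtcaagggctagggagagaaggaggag
The 10 bases GTCATGTGCT stood in all 3 promoters in the same direction as the gene, with the first base at position -23 in Tyr, -48 in Tyrp1 and -152 in Dct relative to the start. Over all 32851 mouse promoters of that length, 61 held these 10 bases on either strand, which is 0.186%. The 10 bases were taken as the run that these 3 promoters share around the core, so their presence in all 3 is a description. The 6-base core CATGTG, counted on both strands and including the cases inside the longer form, stood in 14.2% of all promoters. Dct held a further core on the opposite strand at position -232, and Oca2 held a core on the opposite strand at position -186 (chr7:56239509-56239808, plus strand). Promoters were matched for 6 of the 10 genes, and neither the Best1 promoter nor any of the 3 Mitf promoters held the core. These are matches of letters, not measurements of binding.

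The check of the targeted gene separated the genotypes. Agbl5 stood at 9.89 and 8.57 FPKM (fragments per length of gene and per mapped total) in wildtype, 4.21 and 5.34 in heterozygous, and 1.53, 1.73 and 1.26 in knockout libraries. The 10 photoreceptor markers summed to between 7990 and 9836 FPKM in all 7, so retinal transcripts were abundant in every sample. Recovered read totals ran from 12238926 to 14328466 per library, and a single read over 1 kilobase of exons was worth 0.0663 to 0.0766 FPKM. The X-inactivation transcript Xist was at 181 FPKM in wildtype 2 and 158 in knockout 3 and at most 0.0381 in the other 5, while the Y-linked Ddx3y was at 0 in those 2 and at 15.3 to 17.7 in the others, so wildtype 1 and 2 came from different animals, as did knockout 3 and the other knockout libraries. Libraries heterozygous 1 and knockout 1 stood apart by their lens transcripts: 8 lens markers summed to 2815 and 4512 FPKM there, against 3.55 to 32.3 in the other 5.

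Pmel, the fibril protein, showed the pattern of the melanosome genes at its widest. It stood at 4.83 and 47.1 FPKM in the wildtype libraries 1 and 2, at 73.9 and 32.2 in heterozygous 1 and 2, and at 70.9, 3.62 and 19.5 in knockout 1, 2 and 3. Wildtype 1 and knockout 2 were low, heterozygous 1 and knockout 1 were high, and the genotypes overlapped along almost the whole range. In reads these levels were 162 and 1629 in wildtype, 2393 and 964 in heterozygous, and 2151, 117 and 611 in knockout libraries. The 95% Poisson interval of the lowest library, 2.99 to 4.34 FPKM, lay far below that of the highest, 71.0 to 76.9 FPKM, and covers counting error only. Pmel lies on the plus strand of chromosome 10 (128704195 to 128720238, GRCm38) and its exons are overlapped by those of Cdk2 and Dgka on the minus strand. The library kit did not mark the strand, so a share of its reads could belong to these neighbours.

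**Figure D1:**
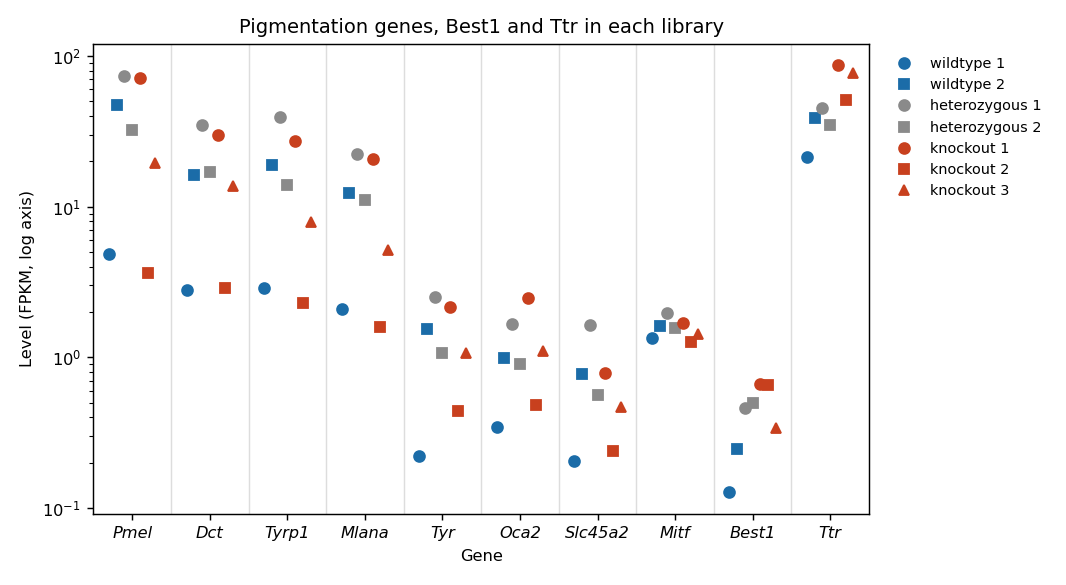
Level of the 10 genes (x axis) in FPKM on a log axis, 1 point per library, with colour for genotype and shape for replicate. For 7 melanosome genes the points of wildtype 1 and knockout 2 sit lowest and those of heterozygous 1 and knockout 1 highest, Mitf shows the same order over a 1.56-fold range, and Ttr shows all 3 knockout points above the 4 controls.

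The tyrosinase family repeated that order. Tyrp1, which acts late in eumelanin synthesis and stabilises tyrosinase, stood at 2.88 and 18.9 FPKM in wildtype, 39.6 and 13.9 in heterozygous, and 27.2, 2.28 and 7.89 in knockout libraries. Dct, the dopachrome tautomerase, stood at 2.82 and 16.2 FPKM in wildtype, 34.6 and 17.0 in heterozygous, and 29.9, 2.90 and 13.7 in knockout libraries. Both were low in wildtype 1 and knockout 2, and a wildtype and a knockout library lay within each other's counting error at the bottom for Dct. Tyr, the enzyme that commits tyrosine to melanin, was the lowest of the 3 at 0.221 and 1.55 FPKM in wildtype, 2.52 and 1.07 in heterozygous, and 2.15, 0.439 and 1.07 in knockout libraries. Its reads numbered 23 in the lowest library and 253 in the highest. None of the 3 genes shares exons with another gene (Tyr, chromosome 7, 87424771 to 87493512; Tyrp1, chromosome 4, 80834123 to 80851719; Dct, chromosome 14, 118012790 to 118052244; GRCm38).

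Mlana and the melanosomal transporters did the same at lower levels. Mlana stood at 2.09 and 12.3 FPKM in wildtype, 22.5 and 11.1 in heterozygous, and 20.7, 1.59 and 5.16 in knockout libraries. Oca2, a melanosomal transporter that lowers acidity, stood at 0.345 and 0.988 FPKM in wildtype, 1.66 and 0.909 in heterozygous, and 2.48, 0.483 and 1.11 in knockout libraries. Slc45a2, another melanosomal transporter, stood at 0.206 and 0.778 FPKM in wildtype, 1.64 and 0.565 in heterozygous, and 0.786, 0.238 and 0.466 in knockout libraries. Slc45a2 rested on 9 to 69 reads and Oca2 on 20 to 130, so neighbours below the highest library could not be separated by counting, but the ends could. The highest library stood apart from the next. For Oca2 the 95% Poisson interval was 2.073 to 2.946 FPKM in knockout 1 and 1.342 to 2.036 in heterozygous 1. For Slc45a2 it was 1.274 to 2.073 FPKM in heterozygous 1 and 0.534 to 1.115 in knockout 1. Mlana lies on chromosome 19 (29697824 to 29708634), Oca2 on chromosome 7 (56239760 to 56536518) and Slc45a2 on chromosome 15 (11000721 to 11029233).

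Mitf, the transcription factor, varied little. It stood at 1.35 and 1.62 FPKM in wildtype, 1.97 and 1.57 in heterozygous, and 1.68, 1.26 and 1.44 in knockout libraries, on 110 to 172 reads over its exons on chromosome 6 (97807052 to 98021349). Its lowest and highest pairs of libraries were nonetheless the same as those of the 7 melanosome genes. Neighbours in this order could not be separated by counting. The 95% Poisson interval of knockout 1, 1.414 to 1.989 FPKM, overlapped that of wildtype 2, 1.369 to 1.895. The ends could be, with 1.034 to 1.517 FPKM in knockout 2 and 1.683 to 2.282 in heterozygous 1. The highest Mitf level was 1.56 times the lowest, against 20.4 times for Pmel, 17.4 for Tyrp1, 14.1 for Mlana, 12.3 for Dct, 11.4 for Tyr, 7.94 for Slc45a2 and 7.19 for Oca2. On the log2(FPKM + 1) scale the range of Pmel exceeded that of 99.8% of the 15472 genes tested (those whose mean over the libraries reached 1 FPKM), whereas the range of Mitf exceeded that of 54.5%.

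All 7 melanosome genes had wildtype 1 and knockout 2 as their lowest pair and heterozygous 1 and knockout 1 as their highest. Among the 15472 genes tested, 4.98% had that lowest pair, 6.86% had that highest pair and 0.911% had both. These pairs were picked from the levels of the melanosome genes themselves, which moved together, so the comparison with all genes is a description. Differences within a genotype were wide: Pmel differed 9.75-fold between the wildtype libraries, 2.29-fold between the heterozygous and 19.6-fold across the knockout libraries. For Tyrp1 the same ratios were 6.55, 2.86 and 11.9, and for Dct they were 5.74, 2.04 and 10.3. The share of the variance on the log2(FPKM + 1) scale that lay between genotypes was 19.1% for Pmel, 20.2% for Tyr, 25.0% for Mlana, 21.7% for Oca2, 25.3% for Tyrp1, 27.4% for Dct, 34.6% for Slc45a2 and 37.5% for Mitf. Over all genes tested its median was 36.0% with quartiles of 17.7% and 57.8%, and 33.3% of the degrees of freedom lie between genotypes. All 7 melanosome genes lay under that median, and their wide range ran across libraries of one genotype. The 2 libraries with Xist, wildtype 2 and knockout 3, lay between the extremes. In these bulk samples, fewer pigment cells and less RNA per pigment cell cannot be told apart.

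As a description over 7 libraries, Pearson's r between melanosome genes on the log2 scale ran from 0.742 to 0.994 over their 21 pairs, with a median of 0.928. Mitf was almost as close to them, with a median r of 0.923 over 7 pairs. Best1 and Ttr were not, with medians of 0.268 and 0.396. The ratios among melanosome genes were nonetheless not fixed: Tyrp1 over Pmel moved between 0.384 and 0.630 and Dct over Pmel between 0.343 and 0.801, while Tyr over Pmel, the widest of the 5 such ratios computed, ran from 0.0303 to 0.121, a 4.0-fold range beside the 20.4-fold range of Pmel itself. The mean of the centred log2 levels of the 6 melanosome genes past the filter on low values, here called the melanosome profile, was -1.40 in wildtype 1 and 0.48 in wildtype 2, 1.22 in heterozygous 1 and 0.25 in heterozygous 2, and 1.11, -1.47 and -0.18 in knockout 1, 2 and 3. Its SD within genotypes was 1.18.

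Differences between genotypes were tested with limma on log2(FPKM + 1) across these 15472 genes, 8 of the 10 among them. Slc45a2 and Best1 stayed under that mean and were read from the fit with no filter. With Benjamini-Hochberg adjustment, none of the 8 passed an adjusted p of 0.05 for knockout against wildtype, where 0.323% of all genes tested did, nor did Slc45a2 or Best1 pass in the unfiltered fit. At an unadjusted p under 0.05 there was 1 of the 8, Ttr, beside 7.5% of all genes. Outside the 8, in the unfiltered limma fit, the unadjusted p was 0.0233 for Best1 and 0.962 for Slc45a2. The counts past the adjusted threshold were also 0 of 8 when knockout was set against heterozygous (0.317% of all genes), heterozygous against wildtype (0%), or knockout against the 4 controls together (0.614%), and at an unadjusted p under 0.05 they were 1, 0 and 1 of 8 (12%, 4% and 12.2% of all genes). These comparisons share libraries and are not independent. The median log2 difference of the 8 was 0.22 for knockout against wildtype, -0.71 for knockout against heterozygous, 1.00 for heterozygous against wildtype and -0.17 for the knockout libraries against the 4 controls, with the median of all genes within 0.01 of 0 each time.

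For the melanosome genes the intervals of the genotype differences were wide. Mean Pmel levels were 26.0 ± 29.9 FPKM (SD) over the 2 wildtype libraries, 53.1 ± 29.5 over the 2 heterozygous and 31.4 ± 35.2 over the 3 knockout. Its knockout minus wildtype difference on the log2(FPKM + 1) scale was 0.18 ± 1.29 (SE), with a 95% interval of -2.92 to 3.27 and a limma adjusted p of 0.982. Against heterozygous libraries it was -1.40 ± 1.29 with an adjusted p of 0.685 in limma. Tyrp1 differed by 0.09 ± 1.05 between knockout and wildtype (adjusted p = 0.988, limma), with an interval of -2.41 to 2.60. Dct differed by 0.58 ± 0.97 (adjusted p = 0.920, limma), and it was the only one of the 8 whose heterozygous and wildtype groups did not overlap, as 14.3% of all genes did in the direction higher in heterozygous. Mitf, with its small spread, was bounded far more closely: -0.01 ± 0.14 for knockout minus wildtype, with an interval of -0.35 to 0.32 (adjusted p = 0.987, limma). Tyr, Mlana, Oca2 and Slc45a2 had differences between 0.01 and 0.44 for that contrast.

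**Figure D2:**
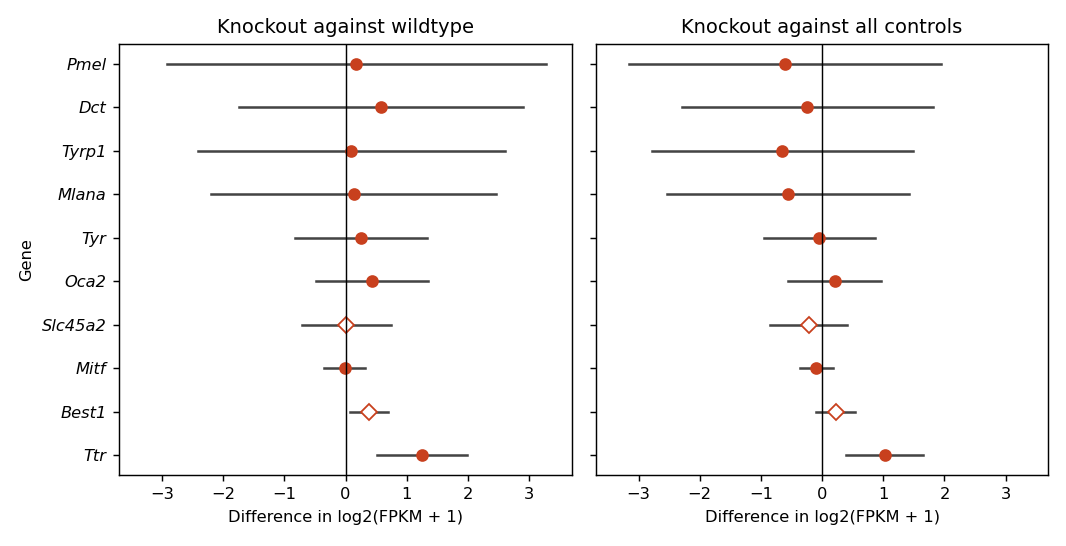
Difference in log2(FPKM + 1) for each gene, knockout minus wildtype on the left and knockout minus all 4 controls on the right, with points at the limma estimate and bars for its 95% interval. Filled circles are genes past the filter and open diamonds are Slc45a2 and Best1 from the unfiltered fit. The interval of Pmel runs from -2.92 to 3.27 on the left, and that of Ttr from 0.52 to 1.99.

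The direction of the knockout minus wildtype estimates of the melanosome genes rested on single libraries, except for Oca2. That of Oca2 stayed between 0.16 and 0.87 over the alternatives in which it was tested. Pmel kept its sign in the other pairs of genotypes. Over the alternatives its knockout minus heterozygous difference ran from -2.36 to -0.38, and its heterozygous minus wildtype difference from 0.05 to 3.10. Without wildtype 1 the knockout minus wildtype difference of Pmel was -1.34 and without wildtype 2 it was 1.70. With heterozygous 1 and knockout 1 both left out, that of Pmel was -0.78, of Tyrp1 -0.70 and of Mlana -0.68. None of the 10 genes passed the threshold in any comparison under any alternative tried.

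Ttr, on chromosome 18, had a different pattern. It stood at 21.4 and 38.6 FPKM in wildtype, 45.2 and 34.8 in heterozygous, and 86.6, 50.8 and 77.2 in knockout libraries, on 381 to 1397 reads. All 3 knockout libraries lay above all 4 controls, as was the case for 6.75% of all genes tested; they lay above wildtype for 13.5% and above heterozygous for 15.3%. The means were 30.0 ± 12.2 FPKM (SD) over the 2 wildtype libraries, 40.0 ± 7.37 over the 2 heterozygous and 71.5 ± 18.6 over the 3 knockout. Its log2(FPKM + 1) difference was 1.25 ± 0.31 for knockout minus wildtype, with an interval of 0.52 to 1.99, an unadjusted p of 0.00533 and an adjusted p of 0.351 in limma. Against all controls the difference was 1.02 ± 0.27, with an adjusted p of 0.216 in limma, and over the alternatives that adjusted p ran from 0.0693 to 0.508. The difference therefore did not pass over all genes, although its direction held in every alternative. Between genotypes lay 73.4% of the variance of Ttr, more than for 88.7% of all genes tested.

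Best1, on chromosome 19 (9985174 to 10001633), was the scarcest of the 10. It stood at 0.127 and 0.247 FPKM in wildtype, 0.461 and 0.498 in heterozygous, and 0.667, 0.659 and 0.340 in knockout libraries. Both wildtype libraries were lowest, and the heterozygous libraries lay inside the knockout range. These levels rested on 4 to 20 reads, and the 95% Poisson interval of wildtype 2, 0.106 to 0.486 FPKM, overlapped that of knockout 3, 0.163 to 0.625. The knockout minus wildtype difference was 0.38 ± 0.13 on the log2(FPKM + 1) scale, with an interval of 0.07 to 0.70. Its unadjusted p was 0.0233 and its adjusted p 0.733 in limma without a filter. Against all controls the difference was 0.22 ± 0.14, with an unadjusted p of 0.1395 in the same fit. Between genotypes lay 71.3% of the variance of Best1, more than for 87.1% of all genes tested.

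Other genes of the pigment epithelium were set beside Ttr and the melanosome profile. Of 22 tested besides Ttr, 17 had a higher r with Ttr than with that profile over the 7 libraries. So had 7807 of all 15472 genes tested and 14 of the 19 for melanosome biogenesis and transport. The median r of the 22 with Ttr was 0.878, against 0.276 for those 19 and -0.01 for all genes tested. With the profile the median r of the 22 was 0.384. Rpe65, the isomerase of the visual cycle, stood at 3.75 and 8.19 FPKM in wildtype, 6.66 and 6.30 in heterozygous, and 12.8, 7.88 and 12.9 in knockout libraries. Rgr, a pigment epithelium opsin, and Lrat, which esterifies retinol, were likewise highest in knockout 1 and 3. The ratio of Rpe65 to Ttr stayed between 0.147 and 0.212, a 1.44-fold range, while that of Pmel to Ttr ran from 0.0713 in knockout 2 to 1.63 in heterozygous 1, a 22.9-fold range. Rpe65 differed by 0.76 ± 0.25 between knockout and all controls, with a limma adjusted p of 0.299. Slc16a8, the lactate transporter of the pigment epithelium, stood at 3.09 and 4.37 FPKM in wildtype, 4.76 and 3.87 in heterozygous, and 8.07, 5.67 and 7.84 in knockout libraries, so its knockout libraries also lay above all controls (adjusted p = 0.129, limma).

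**Figure D3:**
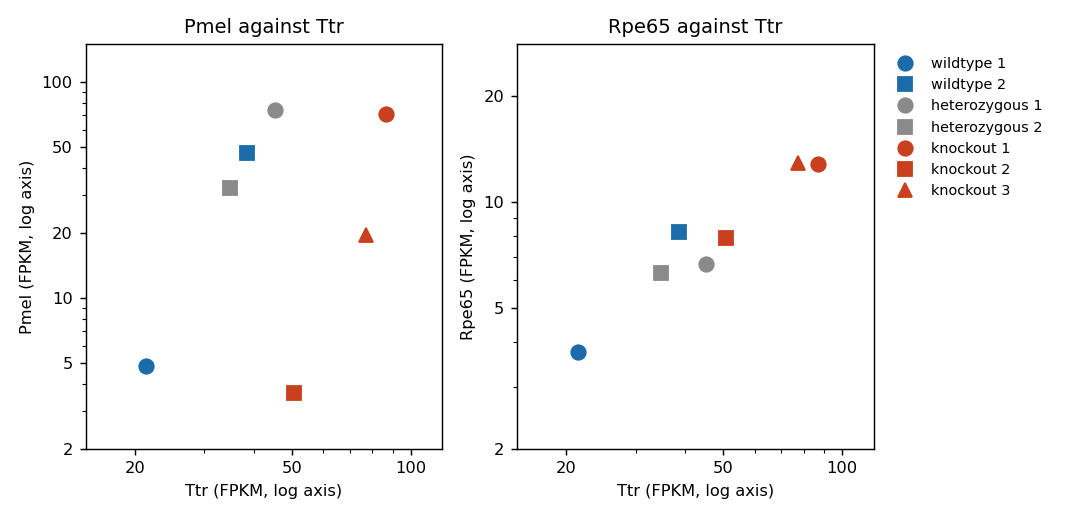
Pmel (left) and Rpe65 (right) against Ttr, in FPKM with log scales on both axes, 1 point per library. Rpe65 follows Ttr within a 1.44-fold ratio, whereas Pmel in knockout 2 is at 3.62 FPKM beside 50.8 FPKM of Ttr.

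Over the longer list of 26 pigment epithelium genes, 23 were tested and none passed the adjusted threshold in any comparison. For knockout against wildtype 20 of the 23 differences were above 0, with a median of 0.50 on the log2 scale, and against all controls its value was 0.35, beside medians within 0.01 of 0 over all genes. The knockout libraries lay wholly above the controls for 6 of the 23 (Ttr, Krt18, Slc16a8, Trf and Slc26a7 among them) and wholly below them for 1, Slc16a1, against 13% of all genes in either direction. Rlbp1, a retinal-binding protein also abundant in Müller glia, stayed between 106 and 119 FPKM in every library. The median between-genotype share of the 22 tested genes other than Ttr was 52.6%. A sum of 10 pigment epithelium markers, Ttr included, was 42.8 to 75.7 FPKM in wildtype, 66.1 to 80.3 in heterozygous and 86.6 to 147 in knockout libraries. Ttr alone stood at 21.4 to 38.6 FPKM in wildtype, 34.8 to 45.2 in heterozygous and 50.8 to 86.6 in knockout libraries, so the sum largely repeats Ttr. Of the 8 markers tested, the knockout libraries lay wholly above the controls for 2, Ttr and Slc16a8. Rpe65 stood at 7.88 FPKM in knockout 2, below 8.19 in wildtype 2.

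The rest of the melanosome pathway was read from 3 lists. Of 16 genes for melanosome enzymes, matrix and transporters 13 were tested, of 22 for biogenesis and transport 19, and of 19 for transcription factors and signalling 13, and none passed in any comparison. Their median log2 differences for knockout against wildtype were 0.13, 0.06 and -0.03. Gpnmb, a melanosomal relative of Pmel, stood at 1.72 and 11.3 FPKM in wildtype, 21.3 and 9.68 in heterozygous, and 17.7, 1.18 and 4.82 in knockout libraries, and thus repeated the order of Pmel library by library. Slc24a5, a melanosomal cation exchanger, stood at 3.40 and 5.86 FPKM in wildtype, 8.51 and 5.00 in heterozygous, and 6.36, 3.80 and 4.05 in knockout libraries. Its range was narrower, with the same lowest and highest pairs. The lysosomal and melanosomal cystine transporter Mfsd12 ran otherwise, at 7.20 and 6.43 FPKM in wildtype, 4.85 and 4.40 in heterozygous, and 6.02, 7.34 and 6.41 in knockout libraries. Its lowest pair was the heterozygous one.

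The machinery of melanosome biogenesis and transport is largely shared with other organelles. Of its 19 tested genes, 0 had wildtype 1 and knockout 2 as the lowest pair, beside 4.98% of all genes, and 3 (Rab38, Ap3b1 and Bloc1s4, named after their values were seen) had heterozygous 1 and knockout 1 as the highest, beside 6.86%. Their median r with the melanosome profile was 0.02, against -0.03 over all genes tested. Ap3d1, a subunit of the adaptor that sorts cargo to lysosome-related organelles, stood between 26.8 and 31.2 FPKM in every library. Myo7a, a motor that moves melanosomes in the pigment epithelium and is also used by photoreceptors and hair cells, stood between 8.07 and 10.1 FPKM. Among transcription factors, Otx2 averaged 54.6 ± 0.228 FPKM (SD) over the 2 wildtype libraries, against 56.2 ± 2.60 over the 3 knockout, with 49.3 and 50.8 FPKM in the heterozygous libraries. Otx2 is also expressed in photoreceptors and bipolar cells. For the other genes that the naming rule picked (Tspan10, Slc7a11, Mreg, Myo5a, Bloc1s2, Usf1, Creb1, Tfap2a, Tfeb and Rdh10), the knockout minus wildtype differences lay between -0.16 for Mreg and 0.35 for Tspan10, with limma adjusted p of at least 0.767.

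Genes that shared the melanosome profile were named by rank of Pearson's r over 7 libraries among 601 genes with a range of at least 1 on the log2 scale. The 8 nearest were Gpnmb (r = 0.994), Edn3 (0.957), Islr (0.951), Scel (0.939), Dcn (0.931), Myh11 (0.927), Slc24a5 (0.920) and Ephx1 (0.918). Edn3, the endothelin that acts on melanocyte precursors, stood at 0.349 and 1.50 FPKM in wildtype, 1.55 and 1.10 in heterozygous, and 1.84, 0.207 and 0.533 in knockout libraries. The smooth muscle myosin Myh11 stood at 0.513 and 4.30 FPKM in wildtype, 6.68 and 2.35 in heterozygous, and 4.70, 0.298 and 0.549 in knockout libraries. Dcn, the decorin of connective tissue, stood at 0.0234 and 1.77 FPKM in wildtype, 3.74 and 1.02 in heterozygous, and 1.90, 0.0607 and 0.238 in knockout libraries. Myh11 and Dcn thus took the same library order as the melanosome genes. The genes nearest to Ttr were Thbs1 (r = 0.995), Slc16a8 (0.987), Tmem98 (0.984) and Lyz2 (0.974), of which Slc16a8 stood on the pigment epithelium lists.

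Markers of the other tissues of the eye were therefore set beside the members. The sum of 7 ciliary body and iris markers was 57.4 to 70.3 FPKM in wildtype, 56.7 to 93.2 in heterozygous and 49.9 to 76.6 in knockout libraries, with 5 of the 7 highest in heterozygous 1 and knockout 1. Most of that sum was Aqp1, at 43.8 to 52.1 FPKM, whose r with the melanosome profile was 0.277. Acta2, the smooth muscle actin on the same list, stood at 1.19 and 12.5 FPKM in wildtype and 29.6 and 7.10 in heterozygous libraries. In knockout libraries Acta2 stood at 18.1, 1.27 and 1.23 FPKM, with knockout 3 as low as knockout 2. The sum of 6 choroid and sclera stroma markers was 8.0 to 8.66 FPKM in wildtype, 9.29 to 14.3 in heterozygous and 6.07 to 13.2 in knockout libraries, with 4 of the 6 lowest in wildtype 1 and knockout 2 and 4 highest in heterozygous 1 and knockout 1. The largest part of that sum was Fmod, at 4.44 to 7.64 FPKM, whose r with the melanosome profile was 0.295. All 8 lens markers were highest in heterozygous 1 and knockout 1, but only 1 was lowest in wildtype 1 and knockout 2, and Cryga was at 0 in some library. The sum of 5 cornea markers was 1.46 to 1.53 FPKM in wildtype, 2.58 to 4.83 in heterozygous and 0.547 to 5.48 in knockout libraries, with Krt14 and Kera at 0 in some library. The part of these tissues in the level of the melanosome genes was not tested.

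**Figure D4:**
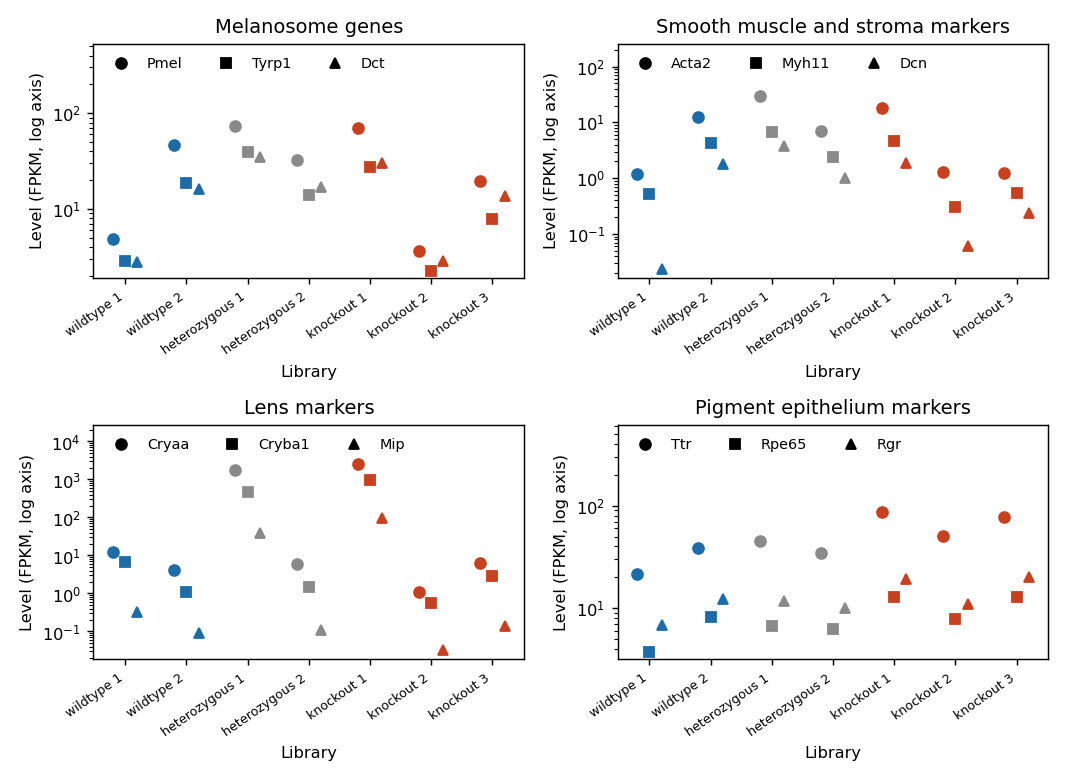
Level in FPKM on log axes of 3 melanosome genes, 3 smooth muscle and stroma markers, 3 lens markers and 3 pigment epithelium markers, 1 panel each, with the 7 libraries on the x axis coloured by genotype. Wildtype 1 and knockout 2 are low for the melanosome genes and for Myh11 and Dcn, knockout 3 is low as well for Acta2 and Myh11, heterozygous 1 and knockout 1 stand out for lens, and the pigment epithelium markers take another order.

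Markers of neural crest melanocytes were few and low. Their sum over 6 genes, Mlana included, was 6.36 to 17.4 FPKM in wildtype, 15.7 to 28.8 in heterozygous and 5.40 to 25.5 in knockout libraries. Mlana alone stood at 22.5 FPKM in heterozygous 1 and 20.7 in knockout 1, so at its highest the sum largely repeats this melanosome gene. Sox10, the defining factor of melanocytes that is also made by glia of the nerve, stood between 0.0896 and 0.793 FPKM, and Pax3 was at 0 in some library. Of the 6 genes, 2 were lowest in wildtype 1 and knockout 2, and 2 were highest in heterozygous 1 and knockout 1. Both times these were Mlana and Sox10. Kit (0.696 to 1.52 FPKM), Ednrb (1.66 to 3.37) and Mc1r (0.727 to 1.47) had neither pair. For Ttr the choroid plexus, another rich source, was looked at through Kl, Folr1, Clic6 and Kcne2. Their sum was 34.2 to 34.7 FPKM in wildtype, 35.4 to 43.1 in heterozygous and 32.4 to 43.7 in knockout libraries. That sum did not separate the genotypes as Ttr did, but most of it was Kcne2, at 24.7 to 28.3 FPKM. The r with Ttr was -0.891 for Kcne2, 0.450 for Folr1 and 0.807 for Clic6. Clic6 stood at 3.48 and 2.35 FPKM in knockout 1 and 3, above every control. In knockout 2 it stood at 1.67 FPKM, within the range of the controls. Whether choroid plexus contributed to the level of Ttr was not tested. A sum of 10 photoreceptor markers was 8780 to 8920 FPKM in wildtype, 8800 to 9836 in heterozygous and 7990 to 8101 in knockout libraries, lowest in the knockout libraries. The part of the photoreceptor level in the level of Ttr was not tested.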

How the data were processed

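Gene levels came as FPKM computed by the authors and deposited in 1 table, 1 column per library. TopHat2 2.0.9 and Bowtie2 2.0.6, together with HTSeq and DESeq, are named per the submitters' processing notes, as are the builds mm10 and GRCm38, without order, settings or annotation release. Positions and exon lengths were those of GENCODE M21 (GRCm38), which held 54409 of the 54532 gene identifiers. With these lengths 96.8% of the values above 0 were whole reads within 0.01, and all 7 values were whole for 32120 genes. For Mlana, Best1 and Ttr the reads are those of the smallest gene length that makes all 7 values whole.

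Levels were tested as log2(FPKM + 1), which understates folds of low genes, with limma 3.58.1 in R 4.3.3 (empirical Bayes with a mean-variance trend) over the 15472 genes whose mean over the 7 libraries reached 1 FPKM, with Benjamini-Hochberg adjustment and a threshold of 0.05. A fit of 3 genotypes left 4 residual degrees of freedom and a fit of knockout against all controls 5. The script was tested on simulated data. Poisson intervals are exact and cover counting error only. The members and the gene lists were chosen with earlier results of these data known. Named were all 10 members, and from each pathway list the genes past the threshold (none), the 4 non-members with the highest mean and the 2 with the smallest p for knockout against wildtype; likewise the 8 genes nearest the melanosome profile and the 4 nearest Ttr. A gene that the rule picked is not reported here. Marker genes printed singly were chosen after their values were seen. A list was described by counts and medians, without a test of the list. Alternatives were another pseudocount, other filters, TPM scaling, quantile normalization, no trend, voom on the recovered reads, a replicate block, and leaving libraries out.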

Additional observations from a re-analysis of the deposited data

How the results depend on the processing

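None of the 10 genes passed the threshold in any of 620 alternatives with a log2 value, and 37 of these turned a sign. Per comparison, the number of all genes called depended on the processing. For knockout against wildtype (50 genes) it was 28 on the TPM scale, 77 with voom on recovered reads, 15 without heterozygous 1 and knockout 1, and 2 to 53 with 1 library left out (5 without wildtype 1, 2 without wildtype 2, and 21, 20 and 32 without knockout 1, 2 and 3). For knockout against heterozygous (49) it was 81 with voom, 0 without heterozygous 1 and knockout 1, and 14 to 40 with 1 library left out (30 and 31 without wildtype 1 and 2, 14 without heterozygous 1, and 23, 22 and 25 without knockout 1, 2 and 3). For heterozygous against wildtype (0) it was 19 with no filter and 0 to 3 with 1 library left out. For knockout against all controls (95) it was 63 on the TPM scale, 147 with voom, 49 without heterozygous 1 and knockout 1, and 45 to 90 with 1 library left out (63 and 59 without wildtype 1 and 2, 60 without heterozygous 2, and 47, 45 and 53 without knockout 1, 2 and 3).

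Signs turned for knockout minus wildtype on the TPM scale for Tyrp1 (-0.0629), Mlana (-0.0279) and Slc45a2 (-0.0594), with quantile normalization for Slc45a2 (-0.0168), and without heterozygous 1 and knockout 1 for Tyrp1 (-0.70), Dct (-0.0948), Pmel (-0.78), Mlana (-0.68) and Slc45a2 (-0.12). TPM scaling moved the median of all genes by -0.16 in that comparison. For knockout minus heterozygous the sign of Best1 turned without heterozygous 1 and knockout 1 (-0.00740). With 1 library left out, knockout minus wildtype ran from -0.27 to 0.79 for Tyr, -1.08 to 1.27 for Tyrp1, -0.50 to 1.67 for Dct, -1.34 to 1.70 for Pmel, -0.92 to 1.19 for Mlana, -0.0920 to 0.0651 for Mitf and -0.27 to 0.29 for Slc45a2. Knockout minus heterozygous ran from -0.74 to 0.0287 for Tyr and -0.26 to 0.26 for Oca2. Knockout minus all controls ran from -0.34 to 0.23 for Tyr, -1.44 to 0.11 for Tyrp1, -0.92 to 0.58 for Dct, -1.57 to 0.41 for Pmel and -1.38 to 0.16 for Mlana. The cause of these shifts was not tested, beyond the libraries each setting leaves out.

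Replicate numbers in the titles were not taken to pair the samples. Deviations of same-numbered libraries correlated between -0.02 and 0.43, with 0.43 for heterozygous 1 and knockout 1 and 0.271 for heterozygous 2 and knockout 2. In a genotype of 2 libraries the deviations mirror each other, so these values cannot decide whether the numbers pair the samples. With a replicate block, 3 genes were called for knockout against wildtype, 0 for knockout against heterozygous and 38 for knockout against all controls, no member among them, and Oca2 differed by 0.0113 between knockout and heterozygous. With 2 or 3 libraries per genotype and within-genotype ranges of up to 19.6-fold, the spread between libraries limits the melanosome genes, and few reads add counting error for Slc45a2 and Best1.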
